A study of Mus musculus with 47 samples.

Results

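The 59 odorant receptor genes Olfr1418 to Olfr1505 form a cluster on mouse chromosome 19. They were taken as every gene named Olfr and a number in the range that begins with Olfr1418 and ends with Olfr1505, without regard to its level. They are 59 of 54532 genes measured, beside 1048 other genes named Olfr and a number. Odorant receptors are G protein-coupled receptors on the cilia of olfactory sensory neurons, where they act through the olfactory G protein, an adenylyl cyclase and a cyclic nucleotide-gated channel. A mature neuron expresses a single receptor gene from a single allele, and the axons of neurons with the same receptor converge in the olfactory bulb. Receptor genes lie in genomic clusters in which neighbours are often close copies of each other.

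Poly(A) RNA of mouse olfactory epithelium was sequenced at 7 ages, postnatal days 0, 3, 5, 7, 10, 14 and 21 (P0 to P21). Wild-type mice (WT) were of strain C57BL/6J, and the mice compared with them, called Kir here, were labelled OIVT;Kir2.1. Kir2.1, encoded by Kcnj2, is an inward rectifier potassium channel that holds cells near their resting potential. The 23 WT and 24 Kir libraries make 14 groups. Both genotypes had 4 libraries at P0 and P7, P10 had 4 for Kir but 3 for WT, and the groups of P3, P5, P14 and P21 had 3. What OIVT stands for, which promoter drives the transgene and which cells carry it is not given in the labels. The labels also do not say that libraries came from separate animals, so p-values measure the spread between these libraries, which may be technical.

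Libraries held 8107547 to 30385151 counts in genes. Kcnj2 stood at 36.8 to 104 CPM (counts scaled to a common library size) in WT and was above that in all Kir libraries. Replicate 3 of Kir P3, replicates 1 and 4 of Kir P7 and replicates 1 and 2 of Kir P21 had only 132 to 238 CPM, against 439 to 1648 CPM in the other 19 Kir libraries, and the main counts and medians that change direction or size without these 5 are given both ways. For WT P0 replicate 3 the title names P0 but the stage label P3, and the title was followed. Omp, the classical marker of mature olfactory sensory neurons, was present in all groups, from 110 to 208 TPM (transcript abundance scaled by length and to a common total) in Kir at P0 to 1732 to 1823 TPM in WT at P21.

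All 59 receptors are annotated as protein-coding. They span chr19:11852587-13921866 (GRCm38, the same build as mm10), which is 2069280 bases, with 33 on the plus and 26 on the minus strand. Gaps of over 100 kb between neighbours divide the cluster into 4 stretches, a division made after seeing the data. The first holds Olfr1418, Olfr1419 and Olfr1420. The next holds 13 genes from Olfr1423 to Olfr1441, the one after it only Olfr1442 and Olfr1443, and the last 41 genes from Olfr1444 to Olfr1505. The span also contains 28 genes named as receptor pseudogenes and 19 other genes annotated as protein-coding. These counts share Olfr1555-ps1, Olfr1438-ps1 and Olfr1493-ps1. The protein-coding genes also include the receptors Olfr76, Olfr262 and Olfr235, whose numbers lie outside the range, so they are not among the 59.

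Many members are close copies. Their coding sequences are 921 to 1077 bases long, and over the 1711 pairs the median identity was 62.1%. For 22 members the most similar other member was over 90% identical, and for 21 members the most similar one was a direct neighbour. The closest pairs were Olfr1502 with Olfr1505 (97.5%), Olfr1471 with Olfr1474 (97.1%), Olfr1472 with Olfr1475 (96.9%) and Olfr1477 with Olfr1484 (96.5%). Reads that mapped to several places were not counted to genes, so the levels of such copies are uncertain. Olfr1423, Olfr1443, Olfr1477, Olfr1484 and Olfr1489 also overlap another annotated gene, and no label gives the strand setting of the counting, so reads of the overlap are uncertain too.

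Receptor promoters are known to carry sites for homeodomain factors such as Lhx2 and Emx2 and for Ebf factors, and start sites from RefSeq (GRCm38.p6) were searched for such letters. RefSeq had a window for 55 of the 59 members. For 46 of these its start lay at the start codon, where a promoter cannot be read, and for 5 it lay at least 500 bases upstream of the start codon. Of those 5, the upstream bases outside annotated transcripts are shown for Olfr1443 and Olfr1477, which had some of the deepest falls in Kir, and for the abundant receptors Olfr1434 and Olfr1437. The windows are chr19:12279604-12279853 (plus strand) for Olfr1434, chr19:12325102-12325316 (minus strand) for Olfr1437, chr19:12677916-12678111 (plus strand) for Olfr1443 and chr19:13500296-13500545 (plus strand) for Olfr1477. Capitals mark the homeodomain-type letters TAATTA or TAATGA on either strand, and TCATTA is the reverse complement of TAATGA.
Olfr1434: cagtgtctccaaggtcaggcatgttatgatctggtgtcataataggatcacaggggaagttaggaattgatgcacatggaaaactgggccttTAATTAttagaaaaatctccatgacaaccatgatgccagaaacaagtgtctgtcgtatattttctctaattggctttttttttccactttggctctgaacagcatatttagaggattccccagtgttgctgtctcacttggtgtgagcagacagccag
Olfr1437: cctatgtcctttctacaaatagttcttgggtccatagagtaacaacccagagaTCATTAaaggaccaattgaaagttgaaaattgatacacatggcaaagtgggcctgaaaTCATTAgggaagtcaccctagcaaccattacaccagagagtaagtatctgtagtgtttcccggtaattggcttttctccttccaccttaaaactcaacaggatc
Olfr1443: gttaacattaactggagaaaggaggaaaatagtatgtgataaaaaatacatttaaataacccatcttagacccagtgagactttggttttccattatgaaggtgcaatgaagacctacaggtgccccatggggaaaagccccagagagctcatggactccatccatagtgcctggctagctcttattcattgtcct
Olfr1477: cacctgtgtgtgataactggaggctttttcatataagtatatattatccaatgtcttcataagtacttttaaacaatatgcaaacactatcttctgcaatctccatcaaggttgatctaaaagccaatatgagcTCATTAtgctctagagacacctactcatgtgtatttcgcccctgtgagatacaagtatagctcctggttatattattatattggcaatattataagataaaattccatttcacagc

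In the 250 bases before the start, at least 1 of the homeodomain-type motifs was found in 4 of the 5 members, in 48.8% of 86 other Olfr genes with such a start, and in 12.5% of all 32851 windows of that length. TAATGA was found in 3 members (36% of other Olfr genes, 8.59% of all windows) and TAATTA in 1 (18.6% and 4.84%). Olfr1437 held 2 matches, at 192 to 197 and 134 to 139 bases before its start. The match of Olfr1426, whose window is not shown, lay 133 to 138 bases before its RefSeq start. That place is inside the annotated gene. Olfr1443 held none. The Ebf-type motif (TCCC, then any 2 bases, then GGGA), also searched on both strands, was in 0 of the 5 members, 0 of the 86 other Olfr genes and 0.779% of all windows. A match describes letters in a window and was not tested for binding.

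The receptors were low but widely detected. A count was present in all 47 libraries for 46 of the 59, and no member was without counts altogether. Mean TPM over the 47 libraries ran from 0.0943 for Olfr1475, which had 36 counts in all and 0 in 26 libraries, to 6.10 for Olfr1447. After Olfr1447 came Olfr1463 (5.43 TPM), Olfr1446 (5.01), Olfr1440 (4.54), Olfr1427 (4.07), Olfr1437 (3.75), Olfr1428 (3.57), Olfr1442 (3.51), Olfr1448 (3.48), Olfr1434 (3.29), Olfr1423 (3.18) and Olfr1491 (2.77). Olfr1440 is known as a receptor for the musk odorant muscone. Neighbours in this order overlapped in their library values, such as 1.29 to 18.7 TPM for Olfr1447 and 0.50 to 19.2 TPM for Olfr1463, and 11 of the 12 were also among the 12 highest by CPM per kb of exon. Olfr1447 and Olfr1446 are 95.3% identical in coding sequence, so their order is uncertain.

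The filter on low counts was passed by 50 members. The other 9 were Olfr1436, Olfr1445, Olfr1453, Olfr1472, Olfr1475, Olfr1480, Olfr1499, Olfr1502 and Olfr1504. They had 36 to 275 counts over all libraries and were not tested.

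Summed over the 59 members, the level was higher at P14 and P21 than at P0 in both genotypes, and the Kir mean was below the WT mean at each of the 7 ages. At P0 the WT libraries held 53.0, 77.9, 51.1 and 70.9 summed TPM and the Kir libraries 50.3, 57.2, 48.7 and 28.1. The genotypes overlapped there. At P14 the WT libraries held 228, 180 and 250 summed TPM and the Kir libraries 177, 157 and 101, with no overlap. At P21 they overlapped again, at 178, 197 and 178 in WT and 196, 174 and 109 in Kir. The low Kir library at P21 was replicate 3, with 1050 CPM of Kcnj2, and the other two, at the WT level of summed TPM, were those with 209 and 238 CPM of Kcnj2. The other ages with low-Kcnj2 libraries did not show this order. At P7 those of low Kcnj2 held 81.69 and 84.25 summed TPM, and the other Kir libraries 84.38 and 108.73. At P3 the library of low Kcnj2 held 53.18, between the 38.5 and 57.38 of the other Kir libraries. The part of Kcnj2 in these differences was not tested. In bulk tissue, fewer neurons with a receptor and less receptor RNA per neuron cannot be told apart.

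**Figure D1:**
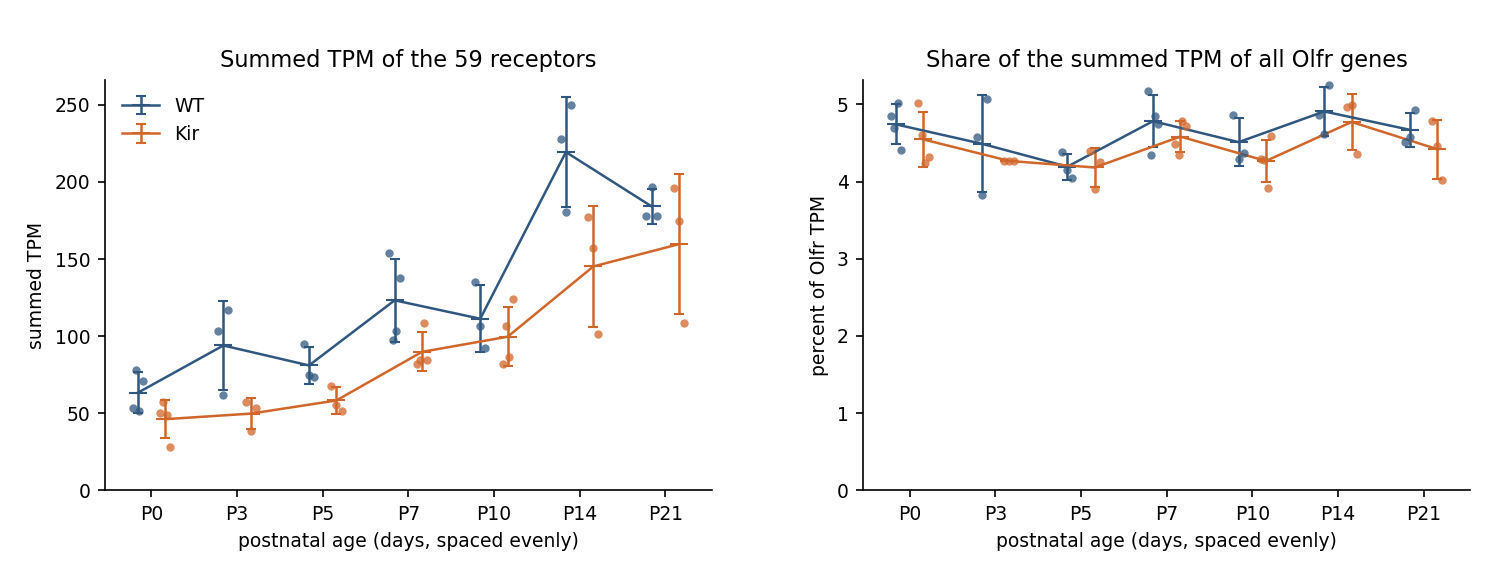
Left, summed TPM of the 59 receptors by postnatal age; right, the percent this sum makes of the TPM of all Olfr genes. Points are libraries, horizontal marks are group means and bars are SD (n = 3 or 4); the WT mean goes from 63.2 at P0 to 219 at P14 and the Kir mean from 46.1 to 145, while the share stays between 4.18% and 4.91%.

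As a share of the TPM of all Olfr genes the cluster kept a narrow range. Its group means ran from 4.18% ± 0.26 (SD, n = 3) in Kir at P5 to 4.91% ± 0.32 (SD, n = 3) in WT at P14. At P0 the share was 4.74% ± 0.26 in WT and 4.55% ± 0.35 in Kir (SD, n = 4 each), and at P21 4.67% ± 0.22 and 4.42% ± 0.38 (SD, n = 3 each). By counts in place of TPM the group means ran from 3.93% in Kir at P5 to 4.70% in WT at P14. The WT share was then lower at P0 (4.26% ± 0.14, SD) than at P21 (4.43% ± 0.31), the reverse of the order by TPM. These shares were not tested. The summed TPM of the cluster was 26.1% ± 1.08 (SD, n = 4) of that of Omp in WT at P0 and 10.3% ± 0.47 (SD, n = 3) at P21, and 29.8% ± 5.31 and 11.9% ± 3.13 in Kir.

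From P0 to P21 in WT, 35 of the 50 tested members rose and 1 fell (edgeR quasi-likelihood test, Benjamini-Hochberg adjusted p under 0.05 over all 19927 genes tested). Of all genes tested 23.9% rose and 26.7% fell. The median log2 fold change was 1.33 over the 50 members, 1.12 over 947 other Olfr genes, of which 578 rose, and -0.05 over all genes. By stretch the medians were 1.97 for Olfr1418 to Olfr1420, 1.69 for Olfr1423 to Olfr1441, 2.89 for Olfr1442 and Olfr1443, and 1.06 for Olfr1444 to Olfr1505. The members named below are all odorant receptors, and a ligand is given as background for Olfr1440 alone.

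The steepest rise in WT was that of Olfr1443 (ENSMUSG00000045030, chr19:12678112-12683851, plus strand). Its WT libraries held 0.897, 1.59, 0.627 and 1.39 CPM at P0 and 11.4, 7.43 and 9.30 CPM at P21, so the ages did not overlap, and the log2 fold change was 3.04 ± 0.31 (SE; edgeR adjusted p = 3.80e-10). Its neighbour Olfr1442, on the same strand and 86.3% identical in coding sequence, held 1.22, 1.59, 1.25 and 2.61 CPM at P0 and 12.4, 10.001 and 11.1 at P21 (2.73 ± 0.31). The other large rises were those of Olfr1418 (2.69 ± 0.42), Olfr1463 (2.67 ± 0.31), Olfr1427 (2.45 ± 0.35), Olfr1424 (2.34 ± 0.46), Olfr1423 (2.24 ± 0.24) and Olfr1426 (2.22 ± 0.31). The muscone receptor Olfr1440 went from 7.59, 7.57, 5.64 and 8.08 CPM at P0 to 18.4, 20.6 and 25.8 CPM at P21, a log2 fold change of 1.58 ± 0.24 (edgeR adjusted p = 1.25e-06). All of these rises exceeded the spread between libraries.

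Olfr1432 alone fell with age in WT. It held 1.79, 2.38, 1.46 and 1.48 CPM at P0 and 0.578, 0.459 and 1.05 CPM at P21, again without overlap (log2 fold change -1.32 ± 0.44, edgeR adjusted p = 0.0120). The fall was not called without WT P21 replicate 1 or without replicate 2, nor with limma on TPM. In Kir it held 0.913, 1.49, 0.731 and 0.620 CPM at P0 and 1.18, 1.17 and 0.364 CPM at P21, and did not pass the test (-0.04 ± 0.44, edgeR adjusted p = 0.951).

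**Figure D2:**
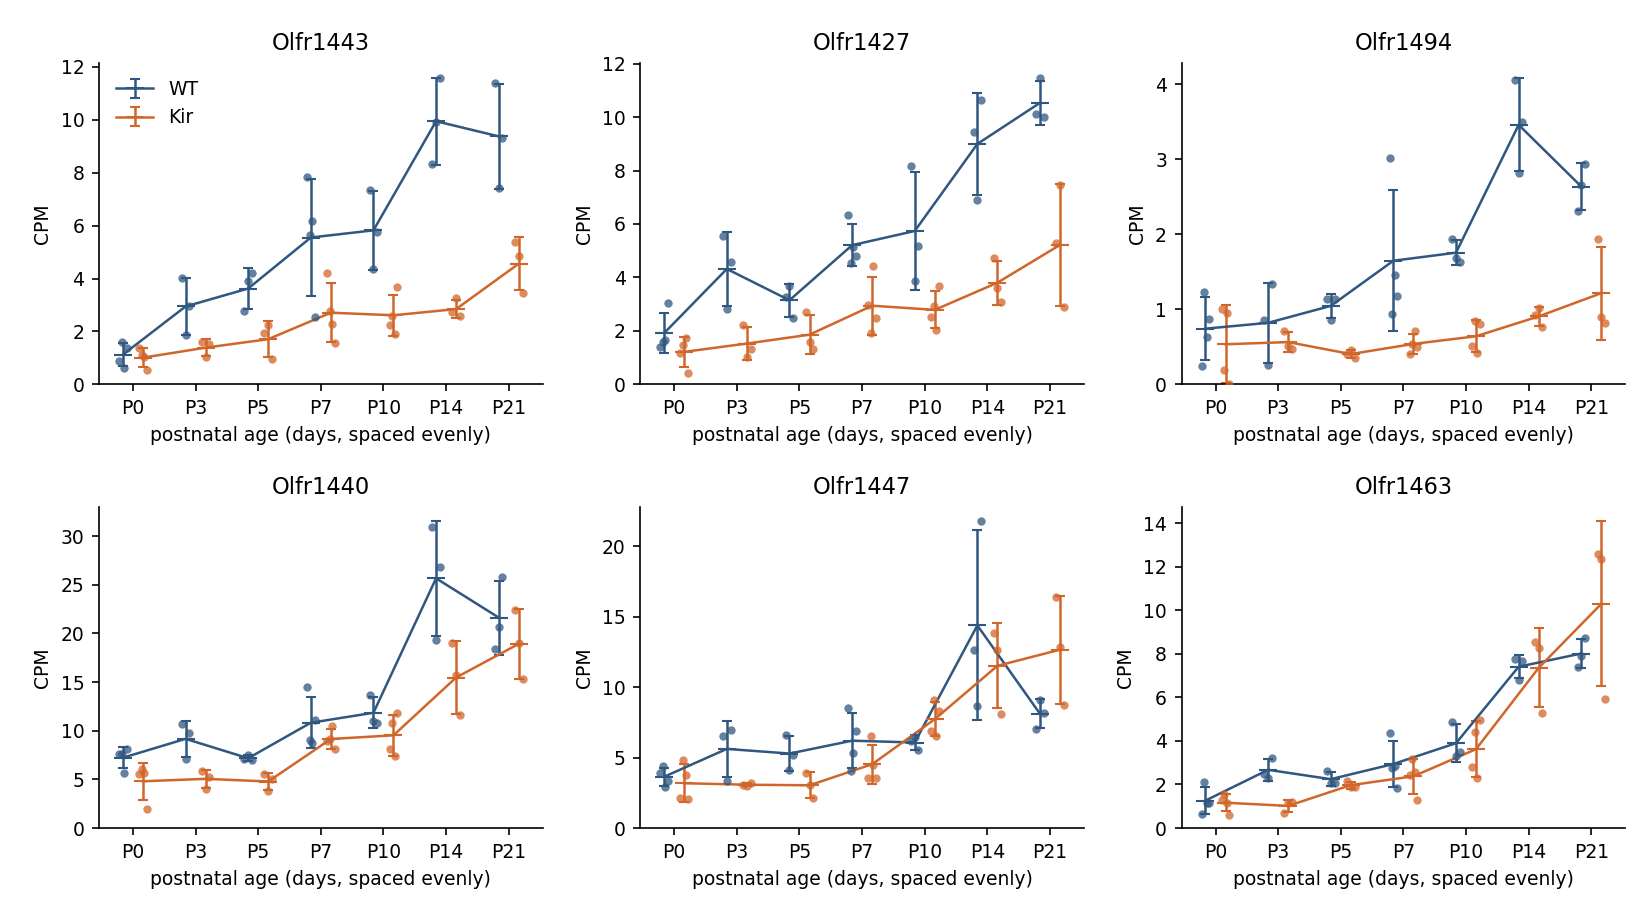
CPM of 6 receptors by postnatal age in WT and Kir, with libraries as points, group means as lines and SD as bars (n = 3 or 4; linear axes, each panel with its own scale). Olfr1443, Olfr1427 and Olfr1494 show no overlap of genotypes from P10 on, while Olfr1440, Olfr1447 and Olfr1463 overlap at P21.

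In Kir, 41 of the 50 members rose from P0 to P21 and 0 fell (edgeR), against 22.9% of all genes called higher and 25.8% lower. At an unadjusted p under 0.05 no member was lower either, and DESeq2 called 42 higher and 0 lower. The median was 1.59, beside 1.51 over the other Olfr genes, of which 739 rose. The largest rises, named after their values were seen, were those of Olfr1495 (3.195 ± 0.40), Olfr1463 (3.14 ± 0.31), Olfr1442 (2.98 ± 0.32) and Olfr1420 (2.78 ± 0.33). Olfr1443 rose by 2.17 ± 0.32. Without the 5 Kir libraries of low Kcnj2, which leaves 1 Kir library at P21 that is assumed to vary like the other groups, 18 members were called higher and the median was 0.93. Olfr1424, at 1.95 ± 0.51 with all libraries, was then at -0.19 ± 0.80 (edgeR adjusted p = 0.926).

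The 2 contrasts share no library. A change was called in both genotypes for 32 members, in WT alone for 4 (Olfr1425, Olfr1432, Olfr1441 and Olfr1494), in Kir alone for 9 and in neither for 5. That split does not show a difference between genotypes, which was tested by itself. In the change of the genotype difference from P0 to P21, 0 of the 50 members were called (edgeR; 0.01% of all genes lower and 0.241% higher). At an unadjusted p under 0.05, 0 were lower and 10 higher, and DESeq2 called 0. The median change was 0.23, but -0.32 without the 5 libraries of low Kcnj2.

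**Figure D3:**
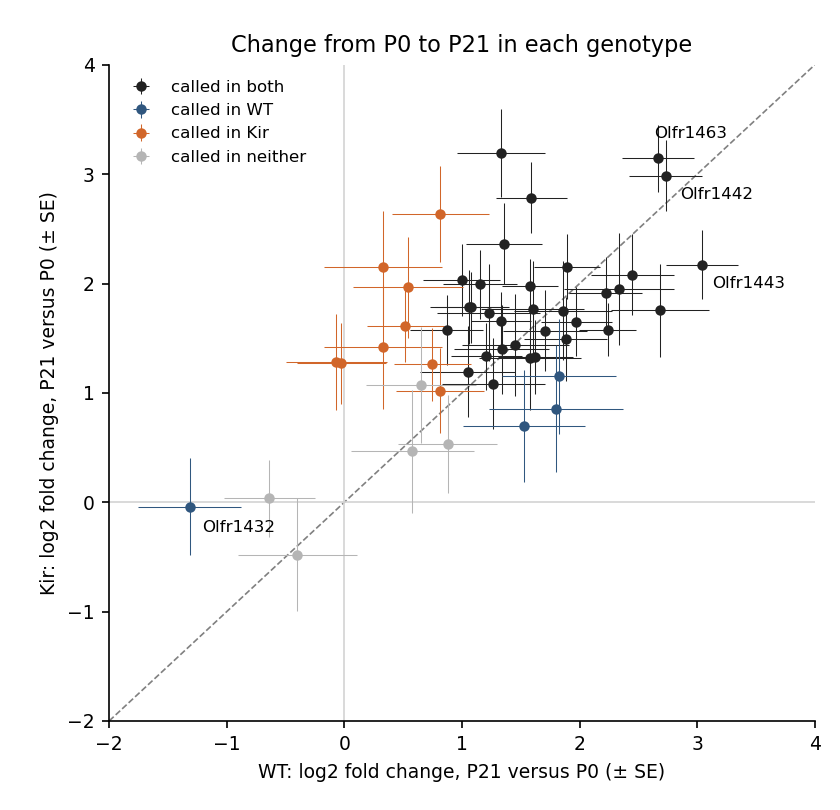
Log2 fold change from P0 to P21 in WT (x axis) and in Kir (y axis) for the 50 tested receptors, with SE bars, the diagonal dashed, and colour showing in which genotype the change was called. Olfr1443 is the member farthest to the right at 3.04 in WT and lies below the diagonal at 2.17 in Kir, and Olfr1432 is the only point called lower.

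The age at which members stood highest was counted in each genotype, with no test. TPM was not adjusted for the prefix of the library titles, which P5 and P10 do not share with P0, P3, P14 and P21. At P7 in WT, replicates 2 and 3, with the prefix of P5 and P10, held 97.7 and 104 summed TPM. Replicates 1 and 4, with other prefixes, held 154 and 138. In Kir at P7 this order was not seen. Replicates 2 and 3, with the prefix of P5 and P10, held 84.38 and 108.73 summed TPM there. Replicates 1 and 4, with other prefixes and low Kcnj2, held 81.69 and 84.25. The part of the prefix in the peak ages was not tested. In WT, 40 of the 59 had their highest mean TPM at P14, 12 at P21, 5 at P7 and 2 at P10. In Kir, 33 were highest at P21, 17 at P14, 4 at P10, 2 at P7, 1 at P5 and 2 at P3. Without the 5 libraries of low Kcnj2, 34 were highest at P14 and 10 at P21 in Kir, the latter from 1 library. Peak ages were not counted for other genes. The summed TPM of all Olfr genes, members included, was 3909 to 4766 in WT libraries at P14 and 3610 to 4302 at P21. In Kir libraries it was 2319 to 3568 at P14 and 2702 to 4097 at P21. From P14 to P21, 0 members were called in either genotype (edgeR; in WT 0.0452% of all genes lower and 0% higher, in Kir 0.356% and 0.1%). At an unadjusted p under 0.05, 8 were lower in WT, and 1 lower and 2 higher in Kir, and DESeq2 called 0 in both. The medians were -0.32 in WT and 0.15 in Kir, the latter -0.44 without the low-Kcnj2 libraries. Over the other Olfr genes, with all libraries, they were -0.27 in WT and 0.19 in Kir. The change of the genotype difference from P14 to P21 was called for 0 members (edgeR; 0% of all genes in either direction; unadjusted 0 lower and 4 higher, DESeq2 0). Its median was 0.51 (0.44 over the other Olfr genes), but -0.14 over the members without the low-Kcnj2 libraries. Erythroid markers moved over the same ages: in Kir all 4 rose from P14 to P21 (median 3.07), with a summed TPM of 514 to 605 at P14 and 994 to 7308 at P21, highest in replicate 1. Their part in the receptor values was not tested.

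Over the 7 ages, the cluster was lower in Kir. In the equal-weight mean of the within-age differences, 25 of the 50 members fell and 0 rose (edgeR), against 7.38% of all genes called lower and 3.03% higher. At an unadjusted p under 0.05, 32 were lower and 0 higher, and DESeq2 called 25 lower and 0 higher. The median log2 fold change was -0.47 over the members, with a range from -1.17 for Olfr1494 to 0.11 for Olfr1465, and 0.01 over all genes. Of the 947 other Olfr genes 502 fell, with a median of -0.44, so the cluster's share of falls lay close to that of the other receptors. Without the 5 libraries of low Kcnj2, 21 fell and the median was -0.52.

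Olfr1443 and Olfr1494 had some of the deepest falls. At P14 the WT libraries of Olfr1443 held 8.31, 9.93 and 11.6 CPM and the Kir libraries 2.72, 3.25 and 2.57 CPM. At P21 they held 11.4, 7.43 and 9.30 CPM in WT and 5.38, 4.85 and 3.46 CPM in Kir. All Kir libraries lay below all WT libraries at 5 of the 7 ages, and the averaged log2 fold change was -1.05 ± 0.11 (edgeR adjusted p = 1.04e-08). For Olfr1494 the P14 libraries held 4.06, 2.82 and 3.50 CPM in WT and 0.929, 1.02 and 0.771 CPM in Kir, with an averaged change of -1.17 ± 0.19 (edgeR adjusted p = 2.35e-05). Its P0 libraries overlapped, at 0.245 to 1.23 CPM in WT and 0 to 1.005 CPM in Kir.

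Olfr1477 (-1.04 ± 0.16), Olfr1419 (-1.02 ± 0.12), Olfr1427 (-0.99 ± 0.14), Olfr1491 (-0.94 ± 0.12), Olfr1424 (-0.86 ± 0.17) and Olfr1484 (-0.83 ± 0.14) followed. Olfr1477 and Olfr1484 are the pair of 96.5% identity, and whether reads of one were counted to the other was not tested. Olfr1419 and Olfr1418 were the members with the most ages without overlap, all Kir libraries lying below all WT libraries at 6 of 7 ages. For Olfr1419 at P21 the WT libraries held 5.49, 6.51 and 6.65 CPM and the Kir libraries 4.45, 3.68 and 3.19 CPM. Olfr1427 at P21 held 10.1, 11.5 and 10.004 CPM in WT and 5.29, 7.45 and 2.91 CPM in Kir. Of the 50 tested members 6 had at least 5 ages without overlap in this direction, beside 5.39% of the other Olfr genes and 0.592% of all genes tested. At least 1 such age was found for 34 of the 50, beside 77.6% of the other Olfr genes and 28.4% of all genes. Over all 59 members, 20 had no such age. For 3 of the 50 tested members the Kir libraries all lay below the WT libraries at some age and above them at another, beside 3.39% of all genes.

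The time course of Olfr1443 can be followed in full. At P0 its Kir libraries held 1.37, 1.12, 1.02 and 0.532 CPM, within and around the WT values given above. At P3 it held 4.03, 1.85 and 2.95 CPM in WT and 1.60, 1.03 and 1.54 CPM in Kir, and at P5 2.76, 3.91 and 4.19 CPM in WT and 1.93, 2.25 and 0.952 CPM in Kir. The genotypes did not overlap at either age. At P7 they overlapped, with 7.84, 5.63, 6.18 and 2.55 CPM in WT and 4.19, 2.78, 2.28 and 1.58 CPM in Kir. At P10 they were apart again, with 7.35, 4.35 and 5.76 CPM in WT and 2.26, 2.58, 1.91 and 3.70 CPM in Kir. The neighbour Olfr1442 fell by less over the ages (-0.66 ± 0.12, edgeR adjusted p = 7.99e-05), and at P21 held 9.32, 9.87 and 6.19 CPM in Kir, all below its WT libraries. The difference between these neighbours was not tested.

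Several of the most abundant receptors did not pass the test. Olfr1447 was at -0.23 ± 0.12 (edgeR adjusted p = 0.270), Olfr1463 at -0.24 ± 0.11 (0.200) and Olfr1437 at 0.09 ± 0.12 (0.776). Olfr1446 (-0.19 ± 0.12), Olfr1448 (-0.18 ± 0.13), Olfr1434 (-0.33 ± 0.12) and Olfr1423 (-0.25 ± 0.09) did not pass either, while Olfr1428 fell (-0.70 ± 0.11). Olfr1434 passed in 5 of the 47 fits that leave out a single library (WT P0 replicate 1, WT P5 replicate 3, Kir P0 replicate 3, Kir P14 replicate 1 or Kir P21 replicate 1), and Olfr1423 in 2 (WT P0 replicate 3 or Kir P7 replicate 3). At P21 Olfr1463 held 7.42, 7.89 and 8.74 CPM in WT and 12.6, 12.4 and 5.92 CPM in Kir, the high Kir values being in the 2 libraries of low Kcnj2. Olfr1447 showed the same order of libraries, with 7.04, 9.08 and 8.18 CPM in WT and 16.4, 12.8 and 8.74 CPM in Kir. Olfr1440 fell by a smaller amount (-0.49 ± 0.09, edgeR adjusted p = 0.000193). At P14 its WT libraries held 30.9, 19.3 and 26.8 CPM and its Kir libraries 19.04, 15.8 and 11.6 CPM, and at P21 the genotypes overlapped at 18.4 to 25.8 and 15.3 to 22.4 CPM. Its fall was not called with limma on TPM.

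By position, falls were called in 3 of 3 members of the first stretch (median -0.76), 6 of 12 tested from Olfr1423 to Olfr1441 (-0.50), both of Olfr1442 and Olfr1443 (-0.85), and 14 of 33 tested from Olfr1444 to Olfr1505 (-0.35). At P14 the summed TPM was 9.44 to 13.4 in WT and 4.85 to 8.51 in Kir for the first stretch, 55.3 to 69.6 and 28.8 to 49.3 for the one from Olfr1423, and 10.3 to 14.2 and 3.47 to 7.22 for Olfr1442 with Olfr1443. The genotypes did not overlap in these 3, and in the last stretch they did (105 to 153 in WT and 63.9 to 112 in Kir). Other ages differed from this. At P3 the last stretch did not overlap (39.4 to 75.9 in WT and 23.6 to 37.3 in Kir), nor did the first. The one from Olfr1423 (17.65 to 34.7 and 11.9 to 19.5) and Olfr1442 with Olfr1443 (2.20 to 5.01 and 0.97 to 2.85) overlapped there. At P5 the genotypes were apart in every stretch. At P21 the last stretch held 88.6, 110.4 and 97.4 summed TPM in WT and 119, 111 and 67.3 in Kir. The Kir library below all WT libraries was replicate 3, and those above them were the 2 of low Kcnj2. No test of position was made.

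**Figure D4:**
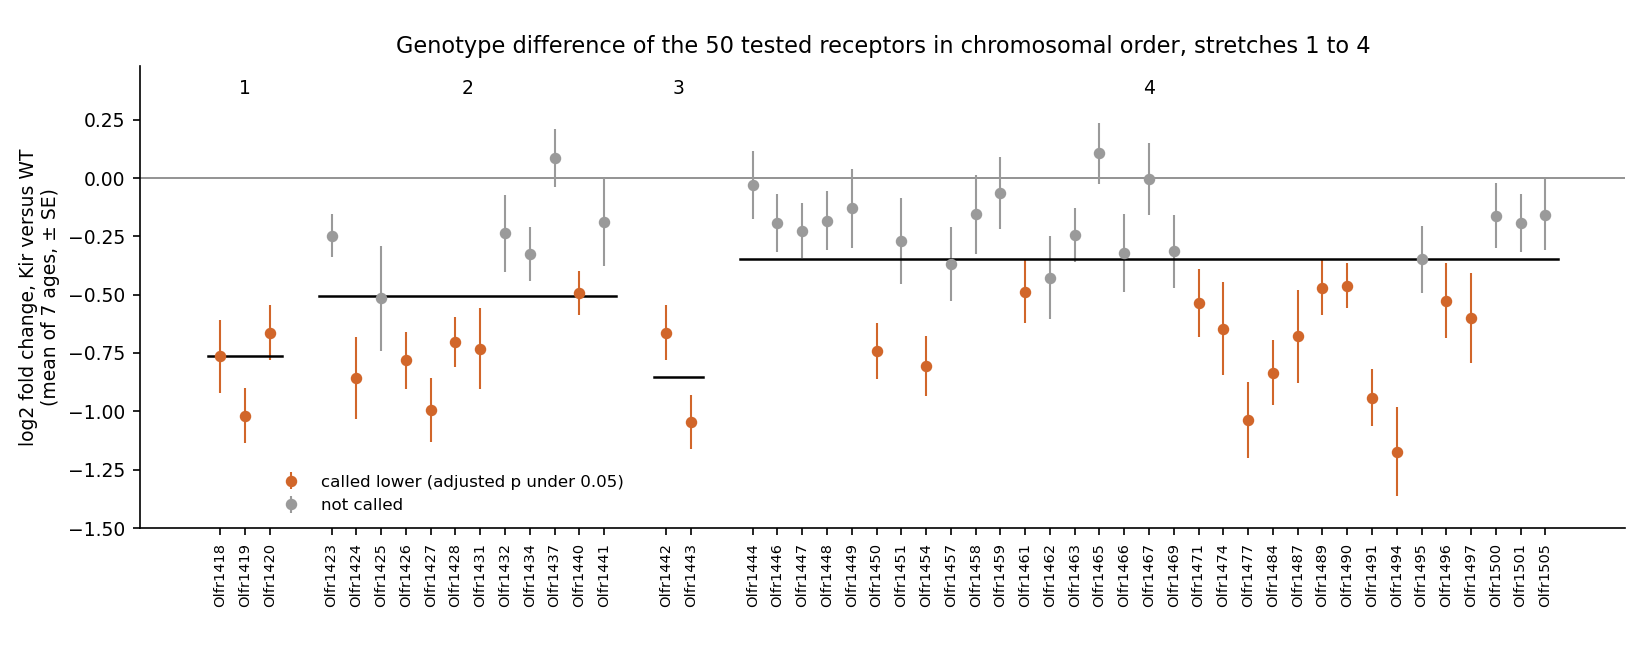
Averaged log2 fold change, Kir against WT, of the 50 tested receptors in chromosomal order, with SE bars, orange for members called lower and a black line for the median of each of 4 stretches (numbered along the top). The medians are -0.76, -0.50, -0.85 and -0.35, and 48 of the 50 points lie below 0.

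At single ages few members passed the test. At P0 2 were lower in Kir (Olfr1420, -1.34 ± 0.32, edgeR adjusted p = 0.0375, and Olfr1454, -1.59 ± 0.37, 0.0324), against 0.637% of all genes. At P3 it was Olfr1419 (-1.44 ± 0.36, edgeR adjusted p = 0.0419; 0.552% of all genes). At P10 there were 4, against 0.291%: Olfr1443 (-1.15 ± 0.27), Olfr1491 (-1.07 ± 0.30), Olfr1424 (-1.44 ± 0.38) and Olfr1419 (-1.15 ± 0.28). At P14 the 2 called (0.412% of all genes) were Olfr1443 (-1.80 ± 0.31, edgeR adjusted p = 0.000412) and Olfr1491 (-1.60 ± 0.34, 0.00552). For Olfr1491 at P14 the libraries held 7.74, 5.35 and 7.06 CPM in WT and 1.86, 2.41 and 2.44 CPM in Kir.

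These calls at single ages rested on few libraries. At P0, 0 members were called without Kir replicate 4 or without WT replicate 1, and 1 without Kir replicate 3 or WT replicate 4. At P3 the call was lost without any 1 of the 3 Kir libraries or without WT replicate 1 or 3, and 4 were called without WT replicate 2. With the replicate number as a block, which pairs the libraries at P3, 0 were called there (edgeR; 27 lower and 0 higher at an unadjusted p under 0.05), and Olfr1419 was at -1.42 ± 0.36 (edgeR adjusted p = 0.0600). At P10, 0 were called without WT replicate 1, 1 without Kir replicate 1 and 2 without WT replicate 3. At P14, 1 was called without Kir replicate 1 or without WT replicate 1.

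At P5, P7 and P21 edgeR called 0 members lower, against 0.0953%, 0.0201% and 0.105% of all genes. Unadjusted p under 0.05 was reached by 14, 13 and 10 members in the lower direction, and DESeq2 called 0, 3 and 1. At P7, edgeR called 1 without Kir replicate 3. No member was called higher at any age (edgeR; DESeq2 also 0), against 0.346% of all genes at P0, 0.161% at P3, 0.0201% at P5, 0.0552% at P7, 2.82% at P10, 0.768% at P14 and 0.652% at P21, though 1 at P10 and 3 at P21 reached an unadjusted p under 0.05 in that direction. The median differences of the members were -0.44 at P0, -0.83 at P3, -0.47 at P5, -0.42 at P7, -0.17 at P10, -0.66 at P14 and -0.19 at P21. Those of the other Olfr genes lay close, at -0.48, -0.79, -0.44, -0.46, -0.13, -0.60 and -0.20 in the same order of ages. Of the other Olfr genes, 1.48% were called lower at P0, 6.02% at P3, 0.634% at P5 and 0.211% at P7. At P10, P14 and P21 these shares were 2.43%, 4.44% and 0.634%. Over the 7 ages 9 falls of members were called, and 4 with the replicate block. Without the low-Kcnj2 libraries the medians of the members at P3, P7 and P21 were -0.93, -0.08 and -0.91. In that fit the Kir libraries left at P7 all have the prefix of P5 and P10, while WT keeps its mix. The part of the prefix in the value at P7 cannot be told apart from that of Kcnj2. Differences between ages in these medians were not tested apart from the changes to P21 given above.

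**Figure D5:**
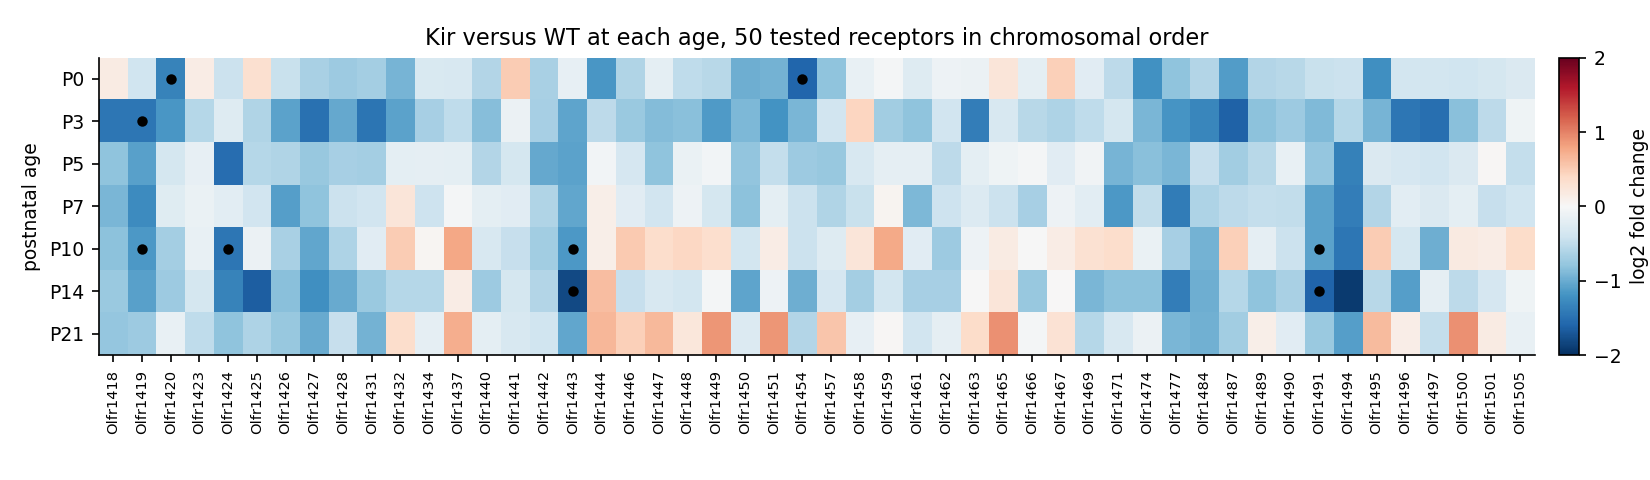
Log2 fold change, Kir against WT, of the 50 tested receptors (columns, in chromosomal order) at each of 7 ages, blue for lower and red for higher in Kir, with black dots on the 9 values called. Blue prevails at P0, P3, P5, P7 and P14, and red columns are most frequent at P10 and P21, where the medians are -0.17 and -0.19.

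Genes that work with the receptors were also lower in Kir. Of 10 markers of mature sensory neurons 10 fell (median log2 fold change -0.43 averaged over ages), among them Omp (-0.54 ± 0.07). Of 20 genes of receptor signalling and transport, which share some genes with that list, 15 fell and 0 rose (median -0.30). They include Adcy3, the adenylyl cyclase of the cilia (-0.45 ± 0.07), Gnal, the olfactory G protein (-0.40 ± 0.06), Pde1c, a phosphodiesterase (-0.50 ± 0.05), Stoml3 (-0.44 ± 0.06) and Rtp1, which helps receptors reach the cell surface (-0.27 ± 0.07). Of 21 regulators of receptor choice, such as Lhx2, Emx2 and Ebf1, 0 were called in either direction (edgeR; median -0.01), and 1 was lower at an unadjusted p under 0.05. The summed TPM of the mature neuron list was 6949 to 7214 in WT and 4952 to 5661 in Kir at P14. The part that this list plays in the falls of the receptors was not tested.

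Markers of other cells moved as well. All 5 macrophage markers rose in Kir (median 0.53), with a summed TPM of 50.6 to 70.7 in WT and 103 to 109 in Kir at P14. Sustentacular markers were called in 0 of 6 (edgeR; also 0 at an unadjusted p under 0.05), and 1 of 8 immature neuron markers rose. Of 5 brain neuron markers 2 fell, and their summed TPM reached 309 in WT P0 replicate 1. Their part in the receptor results was not tested. With age in WT, 10 of 10 mature neuron markers rose (median 2.10), as did 16 of 20 signalling and transport genes (1 fell; median 1.90), while of the choice regulators 7 rose and 3 fell. Other cell types moved with age too: 5 of 6 sustentacular markers rose and 1 fell (median 1.88), and 6 of 7 globose basal and precursor markers (-0.94), 3 of 4 respiratory ciliated markers (-0.78) and 3 of 5 macrophage markers (-0.77) fell. Their part in the rises of the receptors was not tested.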

How the data were processed

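The deposited tables hold gene counts and TPM of 47 libraries. Per the submitters' processing notes, the authors used bcl2fastq 2.18, STAR 2.6.1c, RSEM and mm10. Counts per gene as deposited by the authors leave out reads mapped to several places or to no single gene; these stand in 4 lines that name no gene, which were left out. TPM values as deposited by the authors come from RSEM, which shares such reads between copies. Depth was 8107547 to 30385151 counts in genes, and counting error is largest for the 9 lowest members.

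Counts were analysed in R 4.3.3 with edgeR 4.0.16 (quasi-likelihood F test, TMM factors, filter on low counts by group leaving 19927 genes). A single model held the 14 groups and the prefix of the library titles, which no label explains. P0, P3, P14 and P21 share a prefix, P5 and P10 share another, and at P7 both genotypes have the same mix. Adjusted p-values were taken over all genes. The test was checked on simulated counts for the difference averaged over ages alone. These had known changes in all Kir libraries, an equal spread for all genes and no effect of age or prefix. The check therefore does not cover the calls at single ages. The named members were the 12 highest by TPM, the 8 largest called falls in Kir and the 8 largest called rises and falls with age in WT (mean CPM of at least 0.5), with Olfr1443 and Olfr1440. The members, the lists of genes and the rules were chosen with earlier results of these data known. Alternatives were DESeq2 1.42.0, upper-quartile factors, other filters, no prefix term, limma 3.58.1 on log2(TPM + 1) and log2(TPM + 0.1), the other placing of WT P0 replicate 3, a replicate block, leaving out each library, and leaving out 2 Kir P10 libraries with most unmapped reads. The P21 against P14 comparisons, the 4 stretches and the fit without 5 Kir libraries of low Kcnj2 were chosen after seeing the data. Libraries of the same number deviated together at P3 (correlation over 0.1 in 3 of 3 pairs), as a hint from the data, so the value with the replicate block is given there. The 3 pairs are not independent, because deviations within a group of 3 depend on each other. Over 57 pairs of replicates the chi-square per gene was at least 6.63, so no pair differed by counting error alone. This does not show whether the libraries came from separate animals.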

Additional observations from a re-analysis of the deposited data

Results flagged for a closer look

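In groups of 4 libraries, 4 of 115 values stood far from the other 3 of their group, and chance marks about 1 in 20 groups. Kir P0 replicate 4 held 1.95 CPM of Olfr1440, against 5.57 to 6.04 in the other Kir P0 libraries, and 0 CPM of Olfr1477, against 0.822 to 0.951. WT P7 replicate 3 held 5.35 CPM of Olfr1419, against 3.40 to 3.73. Kir P7 replicate 3 had a summed TPM of 108.73, against 81.69 to 84.38.

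For 5 receptors all Kir libraries lay below all WT libraries at some age and above them at another. Of these, Olfr1447, Olfr1451 and Olfr1495 were tested at each age, and edgeR called them at none. The change of the genotype difference from P14 to P21 was called for 0 of the 50 tested members. Changes between the other ages named here were not tested. Of these 5, 3 were among the 50 tested members (6%), beside 5.81% of the other Olfr genes and 3.39% of all genes tested. The mean of Olfr1447 was 3.07 CPM in Kir and 5.61 in WT at P3, 3.03 and 5.28 at P5, and 7.72 and 6.07 at P10. Olfr1495 was at 0.812 CPM in Kir and 1.59 in WT at P3, 1.86 and 2.80 at P14, and 4.04 and 2.58 at P21. Olfr1451 was at 0.404 and 0.958 CPM at P3 and at 1.77 and 0.961 at P21. The other 2 were too low to be tested for differences. Olfr1436 was at 0.231 CPM in Kir and 0.0940 in WT at P10, and at 0.236 and 0.407 at P14. Olfr1480 was at 0.0862 and 0.248 CPM at P3, 0.185 and 0.0972 at P5, and 0.270 and 0.758 at P14.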

How the results depend on the processing

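Over 12 alternatives the falls averaged over ages numbered 17 to 25 (23 to 29 with single libraries left out), and the rises with age in WT 31 to 38. Of the called members, 15 of 25, 26 of 36 in WT and 18 of 41 in Kir kept their call in all alternatives. The single fall with age in WT became 0 with limma on log2(TPM + 1), on log2(TPM + 0.1) and without a filter, and 0 to 1 with single libraries left out (0 without WT P21 replicate 1 or 2). Without the 5 libraries of low Kcnj2, which leaves 1 Kir library at P21, fewer rises in Kir were called. The value of Olfr1424 changed sign there, to -0.19 ± 0.80 (SE), which is less than its SE from 0. The 9 falls at single ages became 19 with DESeq2, 5 with no filter beyond 1 count, 2 on log2(TPM + 0.1), 4 on log2(TPM + 1) without a filter, 4 without 2 Kir P10 libraries, and 5 (without WT P10 replicate 1) to 12 with single libraries left out. The cause of these changes was not tested. For the 21 named members, 1993 of 2037 values kept their direction and side of the threshold.

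With the replicate block 4 falls at single ages were called, 24 averaged over ages, 33 rises in WT and 36 in Kir. Over 13 pairs of the same number the correlation of deviations was -0.19 to 0.30, above 0.1 in 4, and 4 pairs correlated best with their own number. These 4 include all 3 pairs of P3. At P0, P14 and P21 the libraries share only a number. A best match with the own number also comes by chance, as each library has only 3 or 4 candidates. Low counts kept 9 members from being tested.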
